A study of Homo sapiens with 3 samples.

Results

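The D-type cyclins, their kinases, the kinase inhibitors, RB1 and E2F1 were described at the RNA level in 22Rv1 cells, an established human prostate carcinoma line. The members were 10 genes (CCND1, CCND2, CCND3, CDK4, CDK6, CDKN2A, CDKN1A, CDKN1B, RB1 and E2F1), found by matching Ensembl gene identifiers to these symbols, and all 10 had a row among the 27024 genes counted. RNA-seq came from 3 libraries of a single group, cells of WT genotype grown in RPMI1640 with 10% serum. According to the study's text these cells hold the intact enhancer under study, with the non-risk allele G. The methods call the WT samples control clones grown out from single cells and the results call them biological replicates, so the SD over them may reflect different clones or different cultures of 1 clone. Enhancer KO and risk allele cells were not analysed here, and no value below compares conditions.

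Passage from G1 into S phase is gated by this pathway. D-type cyclins bind and activate CDK4 and CDK6, which phosphorylate the retinoblastoma protein RB1, and phosphorylated RB1 releases the E2F factors that switch on genes for DNA replication. INK4 proteins such as p16INK4a, encoded by CDKN2A, block CDK4 and CDK6 directly. The CIP/KIP proteins p21 (CDKN1A) and p27 (CDKN1B) instead bind cyclin-kinase complexes and inhibit mainly those of CDK2. In prostate epithelium the androgen receptor feeds into the same machinery, and loss of RB1 or CDKN1B is a known feature of advanced prostate cancer.

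RNA of cyclin D1, from CCND1, had the highest level of the 10 members in these cells. CCND1 had the third highest normalized count of all genes, CCND2 had no read in any library, CDK4 far exceeded CDK6, and RNA of the inhibitors CDKN2A, CDKN1A and CDKN1B was abundant beside it. Of the 10 members, 9 reached 1 CPM (reads scaled to the library's total) in all 3 libraries, compared with 47.7% of all 27024 counted genes. The deposited unit is a normalized count, that is, reads divided by a size factor for the library. Depth was 35675670 to 38629080 reads on genes per library, and the median coefficient of variation (CV) between libraries was 5.56% over the 14646 genes averaging 10 reads or more. All 8 prostate epithelial markers passed 1 CPM, led by the luminal keratins KRT8 at 14104 ± 442 (SD, n = 3) and KRT18 at 11672 ± 956 normalized counts per kb of transcript, whereas KLK3, which encodes prostate-specific antigen, was the lowest at 233 ± 22.5. Of the 7 markers of blood, vessel or stromal cells with a row, 2 passed 1 CPM (CD68 and COL1A1), PTPRC, VWF, COL1A2 and DCN stayed below it, and CD3E had no read. PECAM1 was not analysed here. The summed level of those 7 was 77.2 to 97.0 per kb in a library, against 40420 to 42859 for the prostate markers.

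**Figure D1:**
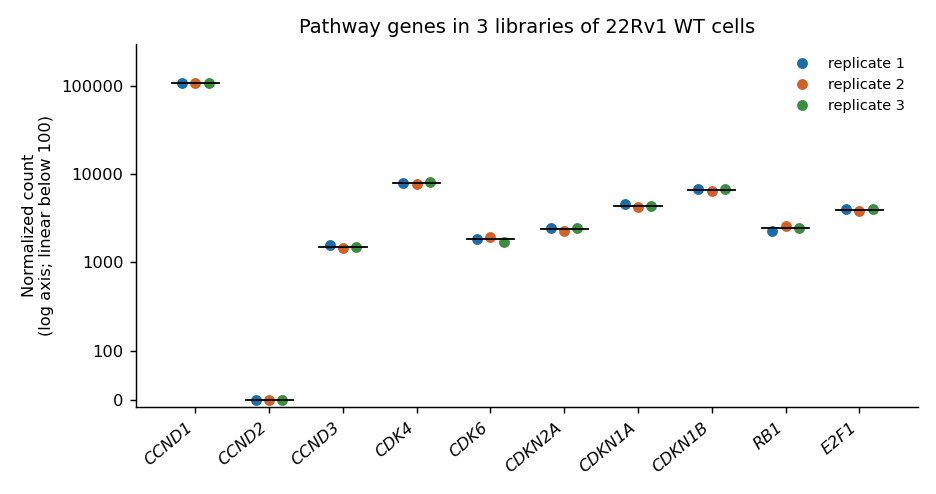
Normalized counts of the 10 members (horizontal axis) in the 3 libraries of 22Rv1 WT cells, with a vertical axis that is logarithmic above 100 and linear below. Points are libraries and bars their mean; CCND1 has a mean of 107656, CCND2 lies at 0, and the other 8 lie between 1451.3 and 8078.1.

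The D-type cyclins were represented almost wholly by CCND1. CCND1 encodes cyclin D1 and lies at chr11:69455924-69469242 on the plus strand of GRCh37, the build used by the authors. Its normalized count was 107459, 108410 and 107100 in replicates 1, 2 and 3, with a mean of 107656 ± 677 (SD, n = 3). Only EEF1A1 and GAPDH were higher, at 241161 ± 7049 and 135294 ± 4619, and TUBA1B (95898 ± 3124) and ACTB (84974 ± 3906) followed. The 3 CCND1 values lay within 1.02-fold of each other, the narrowest span among the members. Reads of CCND1 made up 0.356% ± 0.0035 of all reads on genes. Since read counts grow with transcript length, levels of different genes are compared from here on per kb of the canonical transcript in GENCODE. On that scale CCND1 reached 25403 ± 160, above 99.5% of the 12821 expressed genes with a length.

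CCND3 and CCND2 differed from each other as well. CCND3, the cyclin D3 gene at chr6:41902672-42018095 on the minus strand, had 1577, 1451.3 and 1503.7 normalized counts (mean 1511 ± 63.1). Its level of 746 ± 31.2 per kb was above 73.8% of expressed genes. CCND2, the cyclin D2 gene at chr12:4378937-4414519 on the plus strand, had 0 reads in each library, as did its antisense neighbour CCND2-AS1. A count of 0 allows up to 3 reads per library, equal to 2.36 to 2.54 normalized counts or 0.364 to 0.391 per kb, and this limit covers counting error only. Against it the per-kb level was at least 65423-fold higher for CCND1 and at least 1832-fold higher for CCND3, taking the library with the lowest ratio of each. Within the family CCND1 held 97.1% ± 0.127 of the summed level per kb and CCND3 held 2.85% ± 0.127. CCND1 exceeded CCND3 by 32.6-, 35.7- and 34.0-fold per kb in the 3 libraries (mean 34.1 ± 1.57). This fold depended on the length used, at 86.3 ± 3.97 per kb of merged exons and 70.6 ± 3.25 per kb of coding length. Each length divides the same count of the whole gene. Values per kb of coding length therefore still hold reads outside the coding part.

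The kinase partners were unequal too. CDK4 (chr12:58141510-58149796, minus strand) had 8009.7, 7824.4 and 8078.1 normalized counts, with a mean of 7971 ± 131. CDK6 (chr7:92234235-92465887, minus strand) had 1826.6, 1965 and 1723.3 normalized counts, with a mean of 1838 ± 121. Transcript length widened this gap, because the CDK6 transcript of 11.663 kb is much longer than the CDK4 transcript of 1.865 kb. Per kb, CDK4 reached 4274 ± 70.4, above 96.1% of expressed genes, whereas CDK6 reached 158 ± 10.4, above 32.5% of them. CDK4 thus held 96.4% ± 0.283 of the summed level of both kinases. The ratio of CDK4 to CDK6 was 27.2 ± 2.21 per kb of canonical transcript. It was 4.68 ± 0.381 when the same counts of the whole gene were divided by coding length. A limit applies to CDK4: 57.8% of its canonical transcript overlaps exons of TSPAN31 on the opposite strand, which had 897 ± 35.7 normalized counts, and whether the counting used strand is not given in the sources used here. CCND1 RNA exceeded the sum of both kinases by 5.73 ± 0.115-fold per kb of canonical transcript, 8.29 ± 0.152-fold per kb of merged exons and 11.4 ± 0.0986-fold per kb of coding length.

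Genes that help to assemble or activate these kinases were all expressed. CDC37, the co-chaperone that delivers CDK4 to HSP90, had the highest level among the 4 genes of CDK activation and folding, at 4085 ± 219 per kb. CCNH and CDK7, subunits of the CDK-activating kinase, had 1157 ± 90.6 and 517 ± 32.1, and MNAT1, its assembly factor, had 311 ± 10.9.

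RNA of inhibitors of both families was present beside that of the cyclin and kinases. CDKN2A (chr9:21967751-21995300, minus strand) had 2468.2, 2294.2 and 2471.2 normalized counts, with a mean of 2411 ± 101. Replicate 2 was the lowest, and replicates 1 and 3 lay close together. Its level was 2465 ± 104 per kb, above 92.4% of expressed genes. The row of this gene holds the transcripts of p16INK4a and of p14ARF, an inhibitor of MDM2, so the 2 products cannot be told apart. The other INK4 genes differed widely from each other. CDKN2C, which encodes p18INK4c, had 2405 ± 58.7 per kb, and CDKN2D, which encodes p19INK4d, had 881 ± 36.6. CDKN2B, the p15INK4b gene next to CDKN2A, had only 37.3 ± 7.95. CDKN2A held 42.6% ± 0.558 and CDKN2C 41.6% ± 0.957 of the family's summed level, whereas CDKN2B held 0.643% ± 0.124. With merged exons in place of the canonical transcript the share of CDKN2A was 27.2% and CDKN2D, at 36.5%, was the highest. Part of the CDKN2A transcript (36.9%) resembles CDKN2B at 86.5% identity, and no member had a near-identical copy elsewhere.

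Among the CIP/KIP inhibitors, CDKN1B (chr12:12838432-12875303, plus strand) had 6748.7, 6422.2 and 6743.7 normalized counts, with a mean of 6638 ± 187. CDKN1A, the p21 gene at chr6:36644237-36655114 on the plus strand, had 4568.9, 4285.4 and 4398.5, with a mean of 4418 ± 143. Replicate 2 was the lowest library for both genes. Per kb, CDKN1B reached 2753 ± 77.6 and CDKN1A 2087 ± 67.4, and the 3 values of each did not overlap. Their order depended on the length used: CDKN1B to CDKN1A was 1.32 ± 0.0248 per kb of canonical transcript, 1.24 ± 0.0234 per kb of coding length and 0.487 ± 0.00916 per kb of merged exons. CDKN1C, which encodes p57, was low at 79.5 ± 12.3 per kb and held 1.61% ± 0.226 of the family's sum. CCND1 exceeded the summed level of CDKN1A, CDKN1B and CDKN2A by 3.48 ± 0.136-fold per kb of canonical transcript, with 8.05 ± 0.302 for merged exons and 4.81 ± 0.179 for coding length.

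Genes for inhibitor and cyclin turnover were measured in the same libraries. Turnover of p27 runs through SKP2, the F-box protein that recognises it, and CKS1B, the accessory subunit that SKP2 needs. CKS1B had 6646 ± 112 per kb, above 97.9% of expressed genes, and SKP2 had 857 ± 11.3. CUL1, the scaffold of the same ligase, had 1268 ± 25.6. FBXW7, the F-box protein for cyclin E, had 131 ± 6.54, and AMBRA1, the adaptor for cyclin D degradation, had 296 ± 3.66.

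RB1 was expressed in every library, at a moderate level. RB1 (chr13:48877880-49173572, plus strand, 27 exons in the canonical transcript) had 2265.1, 2581.9 and 2427.1 normalized counts, with a mean of 2425 ± 158. Here replicate 2 was the highest library and replicate 1 the lowest. Its level was 509 ± 33.2 per kb, above 64.1% of expressed genes. The other pocket proteins, RBL1 (p107) and RBL2 (p130), bind E2F factors as RB1 does. RBL2 had 800 ± 33.1 per kb and RBL1 180 ± 9.16, so RB1 held 34.2% ± 1.77, RBL2 53.8% ± 2.00 and RBL1 12.1% ± 0.276 of the pocket protein sum. RBL2 exceeded RB1 in every library, by 1.49- to 1.74-fold per kb of canonical transcript. The mean fold was 1.27 ± 0.117 with merged exons and 1.31 ± 0.120 with coding length. The 5 genes of the MuvB core, with which p107 and p130 repress genes in quiescent cells, were all expressed, from 208 ± 21.7 per kb for LIN37 through 547 ± 27.0 for LIN9 to 1010 ± 18.7 for RBBP4, a histone-binding protein.

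E2F1, the activator released from RB1, lies at chr20:32263283-32274191 on the minus strand and had 4035.6, 3851.3 and 4035.5 normalized counts (mean 3974 ± 106). Its level of 1477 ± 39.5 per kb was above 87.0% of expressed genes and 2.92 ± 0.258-fold that of RB1. That fold was 3.94 ± 0.349 with merged exons and 3.49 ± 0.310 with coding length. E2F4, a mainly repressive E2F, had a level of 1478 ± 83.3 per kb, and the 3 values of both genes overlapped. Each of them held 29.7% of the summed level of the 8 E2F genes, with SDs of 0.398 and 0.736 percentage points. E2F2, another activator, held 14.0% ± 0.199, and the remaining 5 held at most 7.17% each. The equal shares of E2F1 and E2F4 held only for the canonical transcript: they were 35.8% and 21.0% with merged exons and 26.0% and 21.6% with coding length, where E2F2 held 23.7%. Of their dimerisation partners, TFDP1 reached 2013 ± 77.5 per kb and TFDP2 188 ± 4.82.

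Per kb of canonical transcript the members fell in the order CCND1, CDK4, CDKN1B, CDKN2A, CDKN1A, E2F1, CCND3, RB1, CDK6 and CCND2. In all 9 neighbouring pairs the 3 values of the higher gene lay above the 3 values of the lower. No test was made on this order, because 3 paired values cannot give a two-sided exact sign-flip p below 0.25. With merged exons the 3 values of E2F1 and CDKN1A overlapped, CCND1 and CDK4 stayed the first 2, and CDKN1B moved to position 5. With coding length, CDKN1B was second and CDK4 fell to position 4, CDKN1A and CDK4 overlapped, as did CDK6 and CCND3, and RB1 moved below both.

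**Figure D2:**
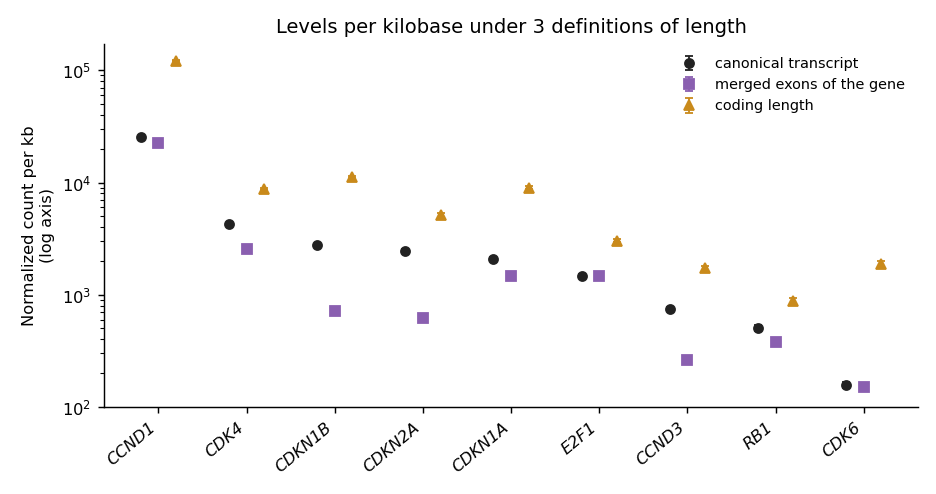
Normalized counts per kb (logarithmic axis) of the 9 members with reads, ordered by level per kb of canonical transcript and shown for 3 definitions of length. Points are means of 3 libraries and bars are SD, mostly smaller than the symbols; CCND1 is highest under each length, whereas CDK6 lies above CCND3 and RB1 only with coding length.

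Genes downstream of E2F were expressed throughout. All 20 G1/S target genes of E2F examined passed 1 CPM, with a median level of 2004 per kb, compared with 315 over all expressed genes with a length. MCM7, a subunit of the replicative helicase, had 9814 ± 111 per kb and PCNA, the polymerase clamp, had 7478 ± 377. MCM4, another helicase subunit, followed at 3809 ± 139. The lowest were the cyclin E genes, with 155 ± 24.3 for CCNE1 and 306 ± 24.8 for CCNE2. Their partner CDK2, also a target of p27 and p21, had 4108 ± 98.4 per kb, 8.95 ± 0.795 times the sum of both cyclins E. That ratio was 7.70 ± 0.699 with merged exons and 11.2 ± 0.987 with coding length. All 11 G2/M genes also passed 1 CPM (median 1975 per kb), led by CDC20, an activator of the anaphase-promoting complex, at 3817 ± 169 and CCNB1, cyclin B1, at 3384 ± 81.2. In bulk RNA such levels cannot tell the share of cycling cells from the RNA content of each cell.

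Promoter sequences were examined for the letters of the E2F site, because E2F1 and several pathway genes are textbook E2F targets. RefSeq windows of 300 bases (250 before to 50 after a gene's start, build GRCh38.p14) were matched for 8 of the 10 members, all but CCND1 and CCND2. The single RB1 window lies 172699 bases inside the gene as RefSeq places it, so it is not the promoter at the gene's start, and the windows nearest the start of CDKN1A and CCND3 lie 2251 and 1347 bases inside. The other 5 members have a window at their start. Both strands were searched for TTTCCCGC, TTTCGCGC, TTTGCCGC and TTTGGCGC, and a gene counted when any of its windows held a word, so that overlapping matches counted once. E2F1 alone of the 8 members held a word, compared with 3.99% of 27305 genes with a window. Among genes with a window within 1000 bases of their start, 1 of 5 members held a word, compared with 4.03% of 25742 genes. For RB1, CDKN1A and CCND3 the start itself was not examined. Among the wider lists, 11 of 16 matched G1/S target genes, 4 of 8 E2F and DP genes, 1 of 3 pocket protein genes (RBL1) and 1 of 8 G2/M genes held a word. A match describes letters in this window and is no evidence of binding. The windows of E2F1 (chr20:33686336-33686635), RBL1 (chr20:37095948-37096247) and MCM7 (chr7:100101348-100101647), all on the minus strand, are shown because they are the member, the RB relative and the highest target gene that hold a word. They are written 5′ to 3′ along the gene, with the words in capitals.
E2F1: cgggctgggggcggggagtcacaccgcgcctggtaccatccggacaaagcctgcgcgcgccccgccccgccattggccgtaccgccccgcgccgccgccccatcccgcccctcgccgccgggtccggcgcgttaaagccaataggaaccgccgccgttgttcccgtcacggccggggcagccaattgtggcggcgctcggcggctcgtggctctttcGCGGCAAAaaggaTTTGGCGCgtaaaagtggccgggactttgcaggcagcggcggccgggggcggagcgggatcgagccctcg
RBL1: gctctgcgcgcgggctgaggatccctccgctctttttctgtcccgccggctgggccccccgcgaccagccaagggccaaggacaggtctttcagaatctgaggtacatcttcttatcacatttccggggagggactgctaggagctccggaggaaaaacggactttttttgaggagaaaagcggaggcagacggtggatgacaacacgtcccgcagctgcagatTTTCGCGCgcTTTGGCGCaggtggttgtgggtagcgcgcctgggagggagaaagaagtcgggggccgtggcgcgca
MCM7: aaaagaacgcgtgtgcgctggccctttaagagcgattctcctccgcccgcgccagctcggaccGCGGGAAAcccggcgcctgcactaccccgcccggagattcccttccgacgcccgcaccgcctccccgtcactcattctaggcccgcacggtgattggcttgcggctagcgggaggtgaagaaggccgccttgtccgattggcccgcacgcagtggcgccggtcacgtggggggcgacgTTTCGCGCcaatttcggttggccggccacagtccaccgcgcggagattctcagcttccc
In E2F1 the 2 words began 33 and 20 bases before the start, and the first read TTTGCCGC on the other strand. In RBL1 they began 26 and 16 bases before it. In MCM7 a word began 9 bases before the start and another 187 bases before it.

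The only test the design allowed across all genes was whether reads differed between the WT libraries by more than sampling. Among the 9 members with reads, 6 differed (chi-square test against TMM sizes from edgeR, Benjamini-Hochberg over 14646 genes), compared with 41.9% of all genes tested. This share covers genes down to a mean of 10 reads. It is not matched to the members on read number, with which the test gains power. The 6 were RB1 (adjusted p = 3.18e-05), CDK6 (adjusted p = 2.48e-04), CCND1 (adjusted p = 9.62e-04), CDKN1B (adjusted p = 0.0104), CDKN1A (adjusted p = 0.0113) and CDKN2A (adjusted p = 0.0231). CCND3, E2F1 and CDK4 had adjusted p of 0.0809, 0.0890 and 0.198 in the edgeR-scaled test. These differences were small, since the highest library exceeded the lowest by 1.02- to 1.14-fold, and CVs ranged from 0.629% for CCND1 to 6.60% for CDK6. CCND1 had 128106 to 136040 reads per library, and its CV was below that of each of the 23 other genes within a factor of 2 of its reads. The test takes reads as independent. Once scaled to the spread among genes of 10 to 50 reads, no member was called (3.47% of all genes), nor with the trended edgeR dispersion (0.341%). The scale and the dispersion were estimated from these same 3 libraries, so they already hold part of the spread under test. The lack of calls with them therefore does not show that the libraries are alike. In the unscaled test 8 members had an unadjusted chi-square p under 0.05. Among the wider lists, the unscaled test called 13 of 20 G1/S target genes, 6 of 11 G2/M genes and 4 of 10 E2F and DP genes. It called 5 of 6 later cyclins and kinases and 5 of 8 prostate epithelial markers. Calls were 2 of 5 for the MuvB core, 2 of 4 for CDK activation and folding and 0 of 5 for turnover genes. The lists were not matched on read number, so these counts do not compare one list with another.

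The members did not all rank the 3 libraries in the same order. Replicate 2 was the lowest library for CCND3, CDK4, CDKN2A, CDKN1A, CDKN1B and E2F1 and the highest for CCND1, RB1 and CDK6, and the last 3 have the longest transcripts of the 9. On the log2 scale the deviation of replicate 2 from the mean of the libraries ran from -0.07 for CDKN2A to 0.10 for CDK6. Transcript length moved with this deviation in all tested genes as well: over 10 bins of genes by length its median was -0.02 in the shortest bin and 0.06 in the longest, with a Spearman rho of 0.24 over 14572 genes and 0.78 over the 9 members, which share these libraries. With library sizes set within each length bin, an alternative chosen after seeing the data, 2 members were called (CCND1 and RB1, against 37.6% of genes). Without replicate 2 only RB1 was called. The labels name no batch or date.

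**Figure D3:**
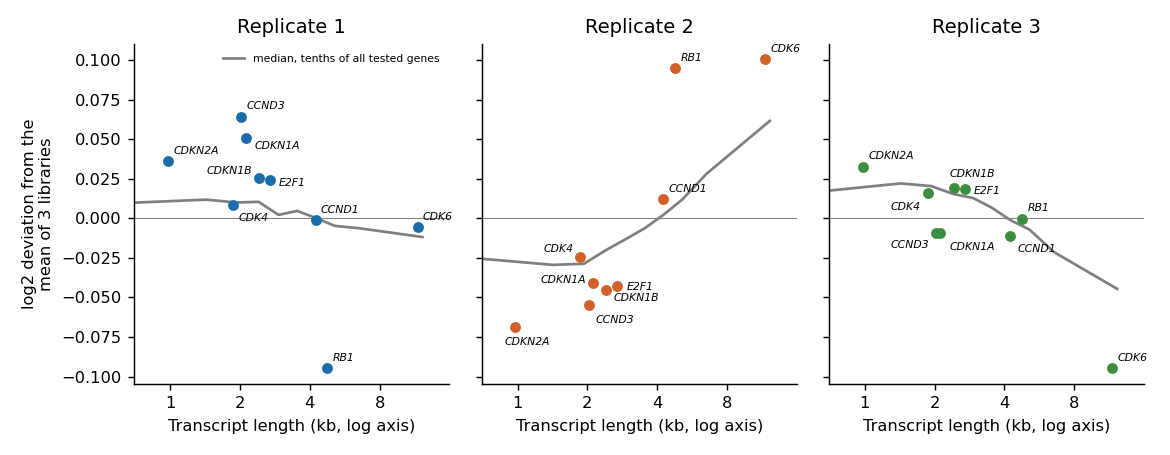
Deviation of each library from the mean of the 3 libraries (log2, vertical axis) against canonical transcript length in kb (logarithmic axis) for the 9 members with reads, 1 panel per replicate. Grey lines join the medians of all tested genes in 10 length bins. In replicate 2 the line falls from -0.02 in the shortest bin to -0.03 in the next and ends at 0.06 in the longest. RB1 and CDK6 lie above it, as do CCND1 and CDK4 by less.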

How the data were processed

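The RNA-seq data were 3 libraries from WT 22Rv1 cells. The authors aligned paired-end reads of 150 bases with HISAT2 (GRCh37, GENCODE models), took counts from HTSeq and normalized these with DESeq2. The GENCODE release, strandedness and HISAT2 version are not given in the sources used here. The deposited signal of a gene is its read count over the library's size factor (1.27, 1.18 and 1.27), rounded to 1 decimal. The step of each library gave whole reads for 100% of values above 0, within 0.1 read. Levels are in the deposited unit and tests used the recovered reads, as the written design foresaw for normalized values. Of 29000 rows, 1976 that held reads and repeated the row above in all libraries were merged. Adjacent rows of 0 in all libraries were not merged, so each of them stays among the 27024 counted genes.

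Symbols matched 86.1% of identifiers, and lengths came from GENCODE lifted to GRCh37. Genes averaging 10 reads or more were tested by chi-square against TMM sizes (edgeR 4.0.16, R 4.3.3, scipy 1.17.1) at an adjusted p of 0.05. The test was also run on simulated reads with sampling error only and with changes larger than those of the members. That run therefore cannot vouch for calls as small as those of the members. Alternatives were other scalings (DESeq2 1.42.0 among them), minimum levels, lengths, a trended dispersion in the variance, sizes by transcript length and the omission of each replicate. Promoter words were counted over any window of a gene. Over the first listed window alone, 3.33% of genes held a word and the members' count did not differ. The any-window count was preferred after both were seen.

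The text names the 10 members, genes of a list under 1 CPM, the 2 to 4 highest genes of each list that is reported, and others for their role or low level, chosen after their values were seen. Some genes of the fixed lists are not reported here. Members, lists and tests were chosen with earlier results of these data known. The labels do not say that replicates are separate cultures, so p-values measure only the spread between these libraries. Figures were drawn with matplotlib 3.10.9.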

Additional observations from a re-analysis of the deposited data

How the results depend on the processing

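No paired analysis was possible because the 3 libraries form 1 group. All 70 alternatives for the members' levels moved them by less than 1 SD, or not at all for CCND2, which had no read. Of these, 40 were rescalings set to the same overall scale and 30 left out a library. Omission of 1 of 3 values cannot move a mean by 1 SD, so those 30 results were fixed in advance. The 70 alternatives therefore say little about stability. The count of 9 expressed members was the same under each minimum tried, and 9, 8 or 7 of 9 neighbouring pairs were separate by canonical, merged exon or coding length. Shares within families depended on the length: with merged exon and coding length they were 98.9% and 98.6% for CCND1, 94.5% and 82.3% for CDK4, 27.2% and 40.3% for CDKN2A, 31.9% and 55.0% for CDKN1B, 36.7% and 37.4% for RB1, and 35.8% and 26.0% for E2F1. Of the members, 6 differed between libraries. With the scaled chi-square 0 did (508 of all genes, against 6141), with the trended dispersion 0 (50 genes) and with library sizes by length 2. The scale and the dispersion were estimated from these same libraries and so already hold part of the spread tested. Leaving out 1 replicate left 1 to 5 members and 3332 to 3950 genes called: 5 members without replicate 1, RB1 alone without replicate 2 and 4 without replicate 3. Other library scalings and minimum counts of 1 or 50 reads each called 6.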
